A study of Mus musculus with 15 samples.

Results

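The 10 genes described here encode the coat of lipid droplets and the enzymes that build and break down the triglyceride inside them: the perilipins Plin2, Plin3, Plin4 and Plin5, the diacylglycerol acyltransferases Dgat1 and Dgat2, and the lipolytic genes Pnpla2, Abhd5, Lipe and Mgll. They were chosen by name for these roles, out of 55421 genes listed in the count data, and all 10 were among the 18979 genes tested. Levels were compared between the posterior eyecups (pigment epithelium, choroid and sclera, with the neural retina removed) of WT mice (4 libraries), mice heterozygous for the FUN025 mutation of Tmem135 (FUN025/+, 6 libraries) and homozygous mutants (FUN025/FUN025, 5 libraries). Tmem135 encodes a transmembrane protein that has been linked to mitochondrial dynamics, and the study asked which transcripts change in the eyecup when it is mutated. All mice were on the C57BL/6J background, were 2.5 months old and received no treatment, and both sexes were used without the sex of a given library being labelled. The mutation is in the germline, so that every cell of a mutant mouse carried it. The tissue is described as pooled from individual mice, and the study lists as many mice of each genotype as there are libraries. More reads fell on Xist, transcribed from the inactive X chromosome of females, than on the Y-linked Ddx3y in 2 of 4 WT, 3 of 6 FUN025/+ and 2 of 5 FUN025/FUN025 libraries. In both mutant genotypes this number differs from that of the females listed by the study, and whether a library's genotype label is affected was not tested. With Xist as a covariate each call of the 10 genes was kept, and leaving out 1 library at a time does not cover an exchange of labels between 2 libraries.

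A lipid droplet is a core of triglyceride and cholesteryl ester inside a phospholipid monolayer, and perilipins sit on that surface and control the access of lipases to the core. The last step of triglyceride synthesis, the acylation of diacylglycerol, is carried out by Dgat1 and Dgat2. Breakdown runs in sequence: Pnpla2 (adipose triglyceride lipase) with its coactivator Abhd5 removes the first fatty acid, Lipe (hormone-sensitive lipase) acts on the diacylglycerol, and Mgll (monoglyceride lipase) releases the last fatty acid and glycerol. In the pigment epithelium, fatty acids and retinoids arrive with shed photoreceptor outer segments and can be stored as esters in droplets.

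Total counts were 18094977 to 20029919 in WT, 10903183 to 13456349 in FUN025/+ and 11053535 to 15038383 in FUN025/FUN025 libraries, so that every WT library was deeper than every mutant library. Levels are given as CPM, read counts scaled to the size of the library by TMM factors, with a floor of 0.15 to 0.28 CPM, the level of 3 counts, which reflects counting error alone. Libraries of one genotype differed by more than sampling noise. Transcripts of Tmem135 itself were 63.96 ± 2.99 CPM in WT (SD, n = 4), 75.0 ± 7.30 CPM in FUN025/+ (SD, n = 6) and 88.3 ± 4.57 CPM in FUN025/FUN025 (SD, n = 5). The mutation need not lower the transcript, so this level does not check the labels. Pigment epithelium markers such as Rpe65 and Rlbp1 summed to 19060 to 24260 CPM over all libraries, skeletal muscle markers to 3222 to 11350 CPM and rod photoreceptor markers to 184 to 2510 CPM. Fewer cells of a type and less RNA per cell cannot be told apart in such bulk samples.

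Plin2 was higher in FUN025/FUN025 eyecups than in both other genotypes, Pnpla2 and Mgll were lower in both mutant genotypes than in WT, and Plin4 was lower in FUN025/+ than in WT. The other 6 genes, Plin3, Plin5, Dgat1, Dgat2, Abhd5 and Lipe, passed the test in no comparison (edgeR's quasi-likelihood test, adjusted over all 18979 genes at a threshold of 0.05). The changes that passed lay between 0.77-fold and 1.37-fold. The comparisons with WT share the 4 WT libraries and are not independent of each other.

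The promoters of the genes that passed the test in FUN025/FUN025 are shown because these 3 genes moved in opposite directions. RefSeq promoters on GRCm38.p6 were present for 8 of the 10 genes, Dgat1 and Dgat2 being those without an entry. The 250 bases before the start site are given for Plin2 (chr4:86670060-86670309, minus strand), Pnpla2 (chr7:141454938-141455187, plus strand) and the first of the start sites of Mgll (chr6:88724162-88724411, plus strand), read 5′ to 3′ along the gene's own strand, with matches to the motifs named in the paragraph after them in capitals.
Plin2: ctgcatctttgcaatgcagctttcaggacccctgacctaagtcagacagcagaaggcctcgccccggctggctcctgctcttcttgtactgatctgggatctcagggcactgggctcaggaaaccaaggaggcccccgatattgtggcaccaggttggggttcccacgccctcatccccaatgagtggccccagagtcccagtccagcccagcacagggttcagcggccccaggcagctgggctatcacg
Pnpla2: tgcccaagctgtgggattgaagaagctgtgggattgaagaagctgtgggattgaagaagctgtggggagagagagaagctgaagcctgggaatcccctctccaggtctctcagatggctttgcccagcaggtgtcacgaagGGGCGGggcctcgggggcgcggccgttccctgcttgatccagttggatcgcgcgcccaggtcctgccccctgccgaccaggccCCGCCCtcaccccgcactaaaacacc
Mgll: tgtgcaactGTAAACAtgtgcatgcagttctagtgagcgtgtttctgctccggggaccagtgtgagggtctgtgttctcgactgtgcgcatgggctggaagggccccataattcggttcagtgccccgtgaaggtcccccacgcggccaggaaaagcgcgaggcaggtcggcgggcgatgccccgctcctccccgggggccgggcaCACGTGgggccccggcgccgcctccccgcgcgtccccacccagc

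The motifs searched, on both strands, were a sterol regulatory element (TCACNCCAC), a PPAR response element of the DR1 type, a forkhead site (GTAAACA), an E-box (CACGTG) and a GC box (GGGCGG). None of the 5 motifs overlapped another in the sequences shown. Of 32851 mouse promoters of this length, 1.05% held the sterol element, 0.338% the PPAR element, 3.17% the forkhead site, 6.02% the E-box and 32.7% the GC box. The Pnpla2 window held 2 GC boxes, starting 109 and 26 bases before the start site. The Mgll window held a forkhead site 241 bases and an E-box 44 bases before the start site. The Plin2 window held none of these letters, and neither a sterol nor a PPAR element was found in any promoter entry of the 8 genes. These are matches of letters, and binding was not measured.

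To see which of the 10 genes the eyecup uses most, CPM values were divided by the length of each gene's exons. In WT libraries Mgll stood far above the rest with 288 CPM per kilobase of exon, 8.77 times the level of Plin3, which followed with 32.8. Plin2 (26.8) and Pnpla2 (25.4) came next, and their WT ranges overlapped. Abhd5 (13.7) and Plin4 (13.66) did not differ beyond their spread either, and were followed by Dgat1 (10.1). Lipe (4.80) and Dgat2 (4.69) overlapped as well. Plin5, a perilipin of oxidative tissues such as heart and muscle, was lowest with 0.731 CPM per kilobase. The other neighbours in this order had ranges that did not overlap in WT. The perilipin used most per exon length in WT was therefore Plin3, a coat protein that moves between cytosol and droplets, with Plin2, the main coat of droplets outside fat, close behind. In FUN025/FUN025 the pair had overlapping ranges, with a mean of 34.3 CPM per kilobase for Plin2 and 33.8 for Plin3.

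**Figure D1:**
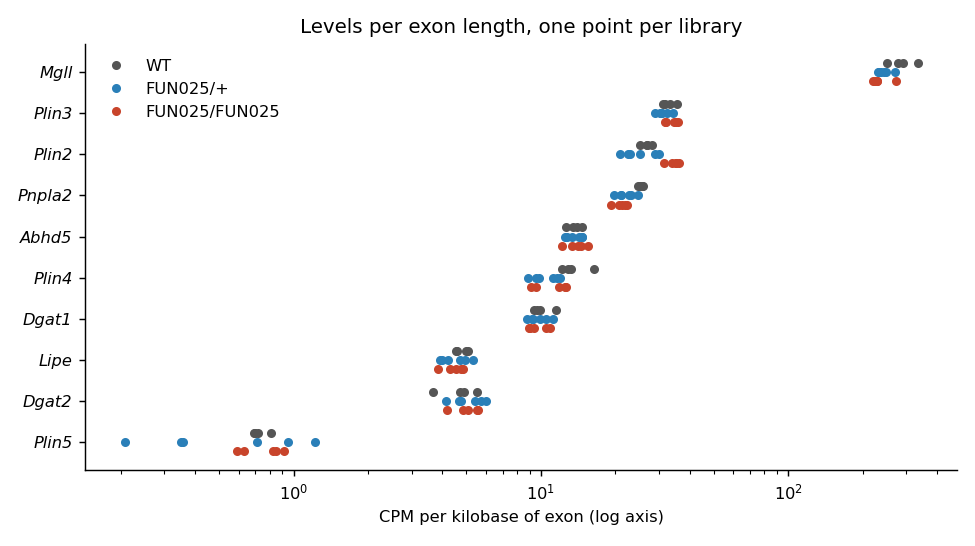
Level per exon length of the 10 genes, with genes in rows in the order of their WT means, CPM per kilobase of exon on a log axis, and 1 point per library coloured by genotype. Mgll lies far to the right in every library, Plin5 far to the left, and the Plin2 points of FUN025/FUN025 (31.4 to 36.1) lie to the right of all the other Plin2 points.

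Between FUN025/FUN025 and WT eyecups, 1 of the 10 genes was higher (Plin2) and 2 were lower (Pnpla2 and Mgll), where 14.0% of all genes tested passed, 7.03% in the higher and 7.02% in the lower direction. The groups did not overlap for 2 of the 10 genes (Plin2 and Pnpla2), against 14.8% of all genes tested. Fold changes were positive for 5 genes and negative for 5, where 48.6% of all genes were positive, with a median log2 fold change of -0.014 beside a median of -0.0071 over all genes. Between FUN025/+ and WT eyecups, 3 of the 10 genes passed, all lower (Plin4, Pnpla2 and Mgll), where 13.7% of all genes tested passed, 7.09% in the higher and 6.61% in the lower direction. Fold changes were positive for 2 genes and negative for 8, where 49.5% of all genes were positive. Only Plin4 had groups that did not overlap in this comparison, against 10.9% of all genes, and the median log2 fold change of the 10 genes was -0.091 beside -0.0023 over all genes. This count of 3 fell to 1 (Pnpla2) without WT replicate 2 or FUN025/+ replicates 1 or 2, and to 0 without WT replicate 3, WT replicate 4 or FUN025/+ replicate 3. Between FUN025/FUN025 and FUN025/+ eyecups, Plin2 alone passed, and alone had groups that did not overlap, where 0.522% of all genes tested passed, 0.327% in the higher and 0.195% in the lower direction, and 1.12% did not overlap. Fold changes were again positive for 5 genes and negative for 5, where 48.2% of all genes were positive.

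**Figure D2:**
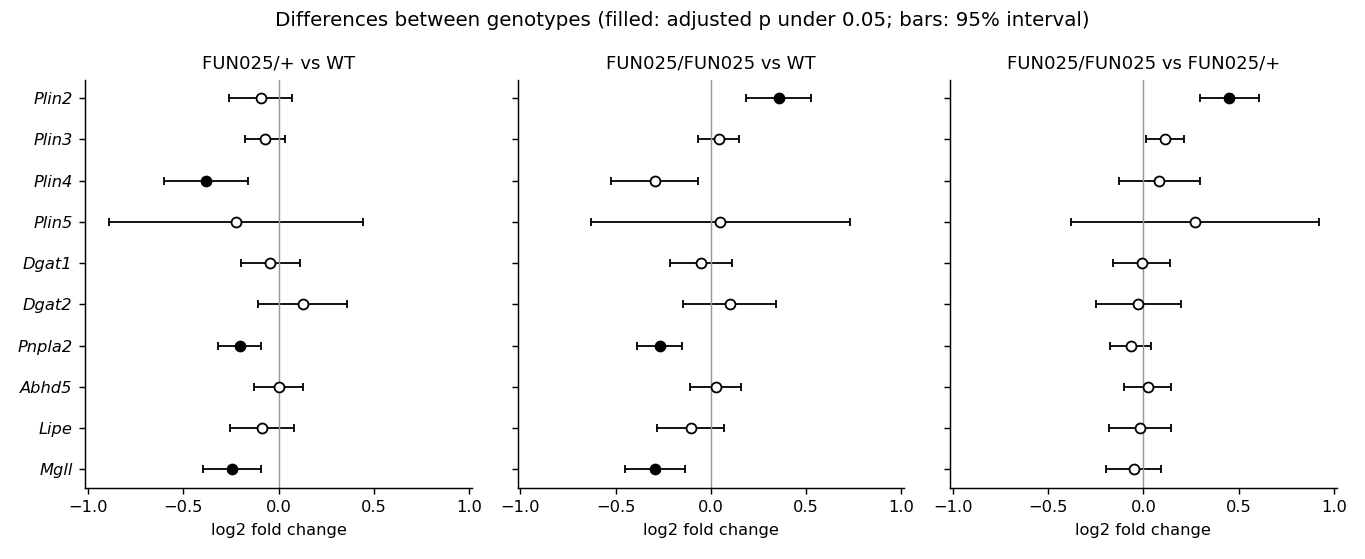
Log2 fold changes of the 10 genes in the 3 comparisons of genotypes, with genes in rows and bars giving 95% intervals from the edgeR fit. Filled points passed at an adjusted p under 0.05: Plin4, Pnpla2 and Mgll in FUN025/+ against WT, Plin2, Pnpla2 and Mgll in FUN025/FUN025 against WT, and Plin2 in FUN025/FUN025 against FUN025/+.

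Plin2, whose protein coats droplets in most cell types, was measured at 94.6, 88.6, 94.1 and 99.2 CPM in the WT libraries. The FUN025/FUN025 libraries held 123, 110.2, 119.5, 123 and 127 CPM. Over the 6 FUN025/+ libraries the lowest value was 73.6, the median 84.5 and the highest 105.7 CPM. All 5 FUN025/FUN025 libraries therefore stood above all 10 of the others, while FUN025/+ libraries lay on both sides of the WT range. The mean was 94.1 ± 4.34 CPM in WT (SD, n = 4), 88.1 ± 12.9 CPM in FUN025/+ (SD, n = 6) and 120.5 ± 6.30 CPM in FUN025/FUN025 (SD, n = 5). The log2 fold change of FUN025/FUN025 against WT was 0.36 ± 0.087 (SE), a 1.28-fold rise with an adjusted p of 0.0123 in edgeR's test. Against FUN025/+ it was 0.45 ± 0.079 (SE), a 1.37-fold rise with an adjusted p of 0.00815. FUN025/+ did not pass against WT (log2 fold change -0.09, 95% interval -0.26 to 0.07, adjusted p = 0.48), an interval that leaves out the rise of the homozygotes. Both rises kept their call whichever library was left out, with log2 fold changes of 0.34 to 0.39 against WT and 0.41 to 0.51 against FUN025/+.

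Levels of markers of other cells stood beside this rise as follows. Photoreceptor markers summed to 353 to 2510 CPM in WT, 186 to 780 CPM in FUN025/+ and 184 to 512 CPM in FUN025/FUN025. The sum of 2510 CPM was that of WT replicate 2 alone, and the next WT library had 824 CPM. With the mean log2 level of these markers as a covariate, alone, the rise against WT was 0.25 with an adjusted p of 0.0767. With muscle and photoreceptor markers together as covariates it was 0.09 (adjusted p = 0.80), while the rise against FUN025/+ kept its call under both. Macrophage markers summed to 501 to 630 CPM in WT, 488 to 714 CPM in FUN025/+ and 565 to 639 CPM in FUN025/FUN025, with 7 of 8 positive against WT and 1, Cd68, called higher (log2 fold change 0.32, adjusted p = 0.0168), where 7.03% of all genes tested were. Against FUN025/+ 5 of 8 macrophage markers were positive and 0 were called with edgeR, DESeq2 or limma-voom, while C1qa (log2 fold change 0.40), C1qc (0.32) and Cd68 (0.21) were higher at an unadjusted p under 0.05 in edgeR's test (adjusted p 0.41, 0.68 and 0.55). That level was reached by 1183 of all 18979 genes tested, and by markers of other cells. Of 10 pigment epithelium markers 5 reached it, Ttr being higher and Rpe65, Rlbp1, Rdh5 and Rgr lower. Of 6 endothelial markers 4 were lower (Pecam1, Cdh5, Kdr and Plvap). Of 5 smooth muscle markers 4 were higher (Acta2, Myh11, Tagln and Cnn1). None of these was called after adjustment. With the macrophage list as a covariate both rises of Plin2 kept their call. Sequence shared with other genes covered 5.16% of the 31-base stretches of Plin2, most of it with the annotated gene Gm12551, and reads from such stretches could be split between them.

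Neither Plin3 nor Plin5 passed the test in any comparison. Plin3 lay at 124 ± 7.46 CPM in WT (SD, n = 4), 118 ± 6.71 CPM in FUN025/+ (SD, n = 6) and 128 ± 6.96 CPM in FUN025/FUN025 (SD, n = 5), and its groups overlapped in every comparison. Its log2 fold change against WT was -0.07 (95% interval -0.18 to 0.03) in FUN025/+ and 0.04 (95% interval -0.07 to 0.15) in FUN025/FUN025. The interval in FUN025/FUN025 ends below the lower end of that of Plin2 (0.19). Plin5 was counted 5 to 34 times per library, and its FUN025/+ libraries ran from 0.435 to 2.54 CPM. Its log2 fold changes against WT had 95% intervals of -0.89 to 0.44 in FUN025/+ and -0.63 to 0.73 in FUN025/FUN025, so that neither a fall nor a rise of the size seen for other members was detectable.

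Plin4, a perilipin known from fat and skeletal muscle, was measured at 70.4, 94.6, 76.3 and 74.5 CPM in WT. The FUN025/FUN025 libraries held 55.2, 71.98, 73.2, 68.5 and 52.7 CPM, and the FUN025/+ libraries had a lowest value of 51.3, a median of 60.7 and a highest value of 68.7 CPM. Every FUN025/+ library was thus below every WT library, whereas 2 FUN025/FUN025 libraries reached into the WT range, in which replicate 2 was the highest. In FUN025/+ the log2 fold change was -0.38 ± 0.11 (SE), or 0.77-fold, with an adjusted p of 0.0364. In FUN025/FUN025 it was -0.30 with a 95% interval of -0.53 to -0.07 and an adjusted p of 0.11, which did not pass. The mutant genotypes did not differ detectably from each other (log2 fold change 0.08, 95% interval -0.13 to 0.30).

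The Plin4 call in FUN025/+ was lost in 6 of the 15 fits that left out 1 library. These were the fits without WT replicates 2, 3 or 4 (log2 fold changes -0.27, -0.39 and -0.41, adjusted p 0.13, 0.061 and 0.068) or without FUN025/+ replicates 1, 2 or 3 (-0.36, -0.36 and -0.34, adjusted p 0.065, 0.070 and 0.070). Skeletal muscle markers summed to 6083 to 11350 CPM in WT, 3222 to 8287 CPM in FUN025/+ and 4915 to 6023 CPM in FUN025/FUN025, with 13 of 13 tested markers negative in both mutant genotypes and 4 called lower in each. Over all genes tested, 6.61% were called lower in FUN025/+ and 7.02% in FUN025/FUN025. With the muscle list alone as a covariate the Plin4 log2 fold change in FUN025/+ was -0.31 (adjusted p = 0.26), and with the photoreceptor list alone -0.25 (adjusted p = 0.23). With both lists together it turned to 0.24 in FUN025/+ and 0.25 in FUN025/FUN025, neither of which passed.

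**Figure D3:**
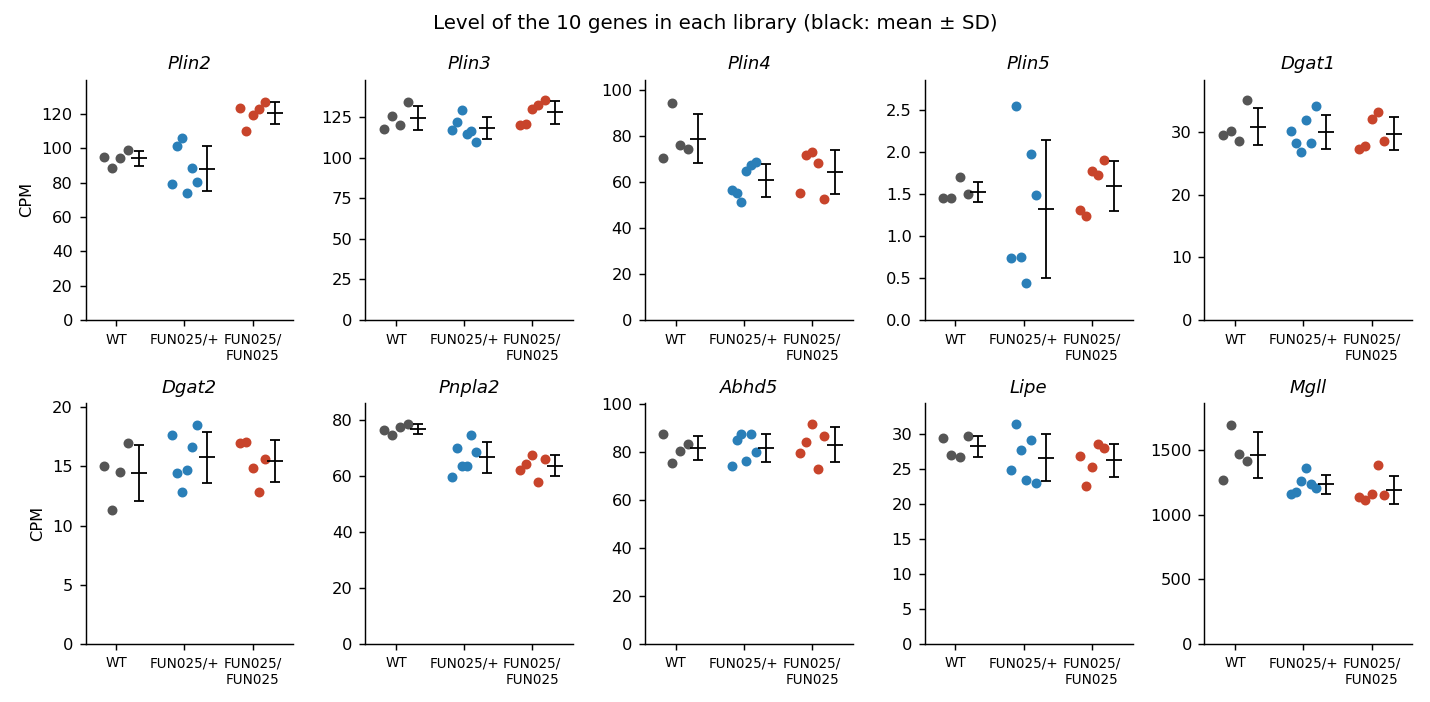
CPM of each of the 10 genes on linear axes that start at 0, with 1 point per library grouped by genotype and the mean ± SD of each genotype in black. The 5 FUN025/FUN025 points of Plin2 (110.2 to 127 CPM) lie above all the others, the 4 WT points of Pnpla2 (74.5 to 78.5 CPM) lie above all FUN025/FUN025 points and all but 1 of the FUN025/+ points, and the genotypes intermingle for Dgat1, Dgat2, Abhd5 and Lipe.

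The acyltransferases that complete triglyceride synthesis showed no change that passed the test. Dgat1, an enzyme of the endoplasmic reticulum, lay at 30.9 ± 2.90 CPM in WT (SD, n = 4), 29.9 ± 2.70 CPM in FUN025/+ (SD, n = 6) and 29.8 ± 2.68 CPM in FUN025/FUN025 (SD, n = 5). Its log2 fold change against WT was -0.04 (95% interval -0.20 to 0.11) and -0.05 (95% interval -0.21 to 0.11), and that between the mutant genotypes was -0.0090 (95% interval -0.16 to 0.14). Dgat2, which also acts at the droplet surface, lay at 14.45 ± 2.35 CPM in WT (SD, n = 4), 15.8 ± 2.16 CPM in FUN025/+ (SD, n = 6) and 15.5 ± 1.75 CPM in FUN025/FUN025 (SD, n = 5). Its log2 fold change was 0.13 (95% interval -0.11 to 0.36) in FUN025/+ and 0.10 (95% interval -0.14 to 0.34) in FUN025/FUN025. For Dgat1 these intervals leave out a rise of the size of Plin2 in FUN025/FUN025, while for Dgat2 they are wider, and that in FUN025/+ includes it. Dgat2 lies on chromosome 7, 9.75 Mb from Tmem135, on which Pnpla2 (52.05 Mb) and Lipe (63.74 Mb) also lie, farther from the mutated gene.

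Pnpla2, the lipase of the first step, had the narrowest spread of the 10 genes in WT, with 76.3, 74.5, 77.3 and 78.5 CPM. The FUN025/FUN025 libraries held 62.2, 64.2, 67.3, 57.95 and 66.2 CPM. Over the FUN025/+ libraries the lowest value was 59.6, the median 65.9 and the highest 74.7 CPM. All FUN025/FUN025 libraries were below all WT libraries, and 5 of the 6 FUN025/+ libraries were as well. The log2 fold change against WT was -0.27 ± 0.060 (SE) in FUN025/FUN025, or 0.83-fold, with an adjusted p of 0.00646 in edgeR's test. In FUN025/+ it was -0.20 ± 0.058 (SE), or 0.87-fold, with an adjusted p of 0.0263. The difference between the mutant genotypes did not pass (log2 fold change -0.07, 95% interval -0.17 to 0.04, adjusted p = 1.00).

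The call of Pnpla2 in FUN025/FUN025 was kept whichever library was left out, with log2 fold changes of -0.29 to -0.24. It was lost with the endothelial list as a covariate (-0.26, adjusted p = 0.11), with the muscle list (-0.17, adjusted p = 0.11) and with muscle and photoreceptor lists together (-0.21, adjusted p = 0.29), and the log2 fold change stayed below 0 in all of these. Endothelial markers summed to 832 to 975 CPM in WT, 650 to 918 CPM in FUN025/+ and 601 to 751 CPM in FUN025/FUN025, where 6 of 6 were negative against WT and 3 (Cdh5, Pecam1 and Plvap) were called lower. In FUN025/+ 5 of 6 endothelial markers were negative and 2 (Cdh5 and Plvap) were called lower. Over all genes tested, 7.02% were called lower in FUN025/FUN025 and 6.61% in FUN025/+. The call in FUN025/+ was lost without WT replicate 3 (log2 fold change -0.20, adjusted p = 0.061), without WT replicate 4 (-0.19, adjusted p = 0.076) or without FUN025/+ replicate 3 (-0.19, adjusted p = 0.056). It was also lost with skeletal muscle (-0.091, adjusted p = 0.47), endothelial (-0.20, adjusted p = 0.058), and muscle and photoreceptor covariates (-0.13, adjusted p = 0.63), and among protein-coding genes alone (-0.18, adjusted p = 0.052).

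Abhd5, the coactivator that Pnpla2 needs for full activity, showed no change that passed the test. Its level was 81.6 ± 5.12 CPM in WT (SD, n = 4), 81.7 ± 5.85 CPM in FUN025/+ (SD, n = 6) and 83.0 ± 7.30 CPM in FUN025/FUN025 (SD, n = 5). The log2 fold changes against WT were 0.0012 (95% interval -0.13 to 0.13) and 0.02 (95% interval -0.11 to 0.16). The lower end in FUN025/FUN025 lies above the upper end of the Pnpla2 interval (-0.15). Abhd5 shares 950 bases, 16% of its exons, with the antisense gene A730085K08Rik, and reads of the pair cannot be told apart with a kit that does not mark strand.

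Lipe, the diacylglycerol lipase, lay at 28.2 ± 1.54 CPM in WT (SD, n = 4), 26.6 ± 3.37 CPM in FUN025/+ (SD, n = 6) and 26.2 ± 2.39 CPM in FUN025/FUN025 (SD, n = 5). Its log2 fold changes against WT were -0.09 (95% interval -0.26 to 0.08) and -0.11 (95% interval -0.28 to 0.07), neither of which passed, and a fall of the size of Pnpla2 lies just inside the second interval. It shares 918 bases, 15.6% of its exons, with the antisense gene 4732471J01Rik.

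Mgll, the lipase of the last step and the enzyme that also degrades the endocannabinoid 2-arachidonoylglycerol, was by far the most abundant of the 10 genes, with 12730 to 31501 counts per library. Its values were 1271, 1695, 1472 and 1414 CPM in WT. Those of the FUN025/FUN025 libraries were 1137, 1118, 1164, 1386 and 1155 CPM. Over the FUN025/+ libraries the lowest value was 1165, the median 1221 and the highest 1366 CPM. WT replicate 1 was within the range of both mutant genotypes, and WT replicate 2 was the highest of all libraries. The mean was 1463 ± 176 CPM in WT (SD, n = 4), 1235 ± 73.3 CPM in FUN025/+ (SD, n = 6) and 1192 ± 110 CPM in FUN025/FUN025 (SD, n = 5). Log2 fold changes against WT were -0.24 ± 0.077 (SE) in FUN025/+, with an adjusted p of 0.0420, and -0.30 ± 0.080 (SE) in FUN025/FUN025, with an adjusted p of 0.0200, or 0.84-fold and 0.81-fold. The mutant genotypes did not differ detectably (log2 fold change -0.05, 95% interval -0.19 to 0.09).

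The Mgll call in FUN025/FUN025 was lost without WT replicate 2 (log2 fold change -0.21, adjusted p = 0.093), without WT replicate 3 (-0.28, adjusted p = 0.053) or without FUN025/FUN025 replicate 2 (-0.27, adjusted p = 0.052), with photoreceptor markers as a covariate (-0.24, adjusted p = 0.095) and with muscle and photoreceptor markers together (-0.20, adjusted p = 0.53). That in FUN025/+ was lost in 10 of the 15 fits without 1 library, in which the log2 fold changes were -0.26 to -0.16, the smallest of them without WT replicate 2. It was also lost in 9 of 18 other alternatives. Among these were upper-quartile scaling (-0.23, adjusted p = 0.060) and muscle and photoreceptor covariates (-0.15, adjusted p = 0.74). Opposite strands of Mgll and of Gm26588 share 167 bases, 3.29% of the Mgll exons.

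Ratios within a library do not depend on the scaling between libraries and are given as a description, chosen after the levels were seen. Per exon length, Plin2 stood at 1.06 ± 0.027 times Pnpla2 in WT (SD, n = 4), at 1.14 ± 0.17 in FUN025/+ (SD, n = 6) and at 1.64 ± 0.14 in FUN025/FUN025 (SD, n = 5). The ratio was 1.48 to 1.83 in FUN025/FUN025 libraries and at most 1.43 in the others. Per exon length, Pnpla2 stood at 1.86 ± 0.099 times Abhd5 in WT (SD, n = 4), 1.61 ± 0.096 in FUN025/+ (SD, n = 6) and 1.51 ± 0.048 in FUN025/FUN025 (SD, n = 5). The WT range of this ratio, 1.72 to 1.95, lay above that of both mutant genotypes.

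The remaining genes of the pathway were examined from lists drawn up by function. Of 15 other triglyceride synthesis genes tested (16 listed), 1 rose and 2 fell in each mutant genotype against WT in edgeR's test, the same 3 genes both times. This is 3 of 15, or 20% of the list, where 13.7% of all genes tested passed in FUN025/+ and 14.0% in FUN025/FUN025, and the median log2 fold changes were -0.0043 and -0.047. DESeq2 called 5 in FUN025/+, adding Gpd1 and Gk, and 4 in FUN025/FUN025, adding Gpd1, while limma-voom called the same 3 as edgeR in both. Gpam, the mitochondrial glycerol-3-phosphate acyltransferase of the first step, rose from 351 ± 29.4 CPM in WT (SD, n = 4) to 424 ± 34.1 CPM in FUN025/+ (SD, n = 6) and 481 ± 28.3 CPM in FUN025/FUN025 (SD, n = 5). Its log2 fold change was 0.27 (adjusted p = 0.0115) in FUN025/+ and 0.46 (adjusted p = 2.58e-04) in FUN025/FUN025, and the second kept its call in every alternative and every fit without 1 library. The first was lost with fat cell (0.25, adjusted p = 0.11), photoreceptor (0.23, adjusted p = 0.067), and muscle and photoreceptor covariates (0.31, adjusted p = 0.30). All FUN025/FUN025 libraries (452 to 524 CPM) stood above all WT libraries (320 to 390 CPM).

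Lpin1, a phosphatidate phosphatase that makes diacylglycerol, fell by 0.42 on the log2 scale in FUN025/+ (adjusted p = 0.00338) and by 0.34 in FUN025/FUN025 (adjusted p = 0.0158). Without WT replicate 1 the latter was -0.27 (adjusted p = 0.052), and both calls were lost with the skeletal muscle list as a covariate (-0.26, adjusted p = 0.13, and -0.20, adjusted p = 0.21). With muscle and photoreceptor covariates together they were -0.13 (adjusted p = 0.76) and -0.088 (adjusted p = 0.82), and with endothelium the latter was -0.44 (adjusted p = 0.059). Agpat4, an acyltransferase for lysophosphatidic acid, fell by 0.41 in FUN025/+ (adjusted p = 0.00387) and by 0.37 in FUN025/FUN025 (adjusted p = 0.0108) on the log2 scale. The call in FUN025/+ was lost with the fat cell covariate (-0.26, adjusted p = 0.13) and that in FUN025/FUN025 with the endothelial covariate (-0.27, adjusted p = 0.24). With muscle and photoreceptor covariates both were lost (-0.47, adjusted p = 0.26, and -0.42, adjusted p = 0.23). The groups did not overlap for Lpin1 or Agpat4 against WT in either mutant genotype. Among the 15 genes this held for 2 in FUN025/+ and 3 in FUN025/FUN025. Over all genes tested it held for 10.9% and 14.8%. Between the mutant genotypes 0 of the 15 genes passed with edgeR, DESeq2 or limma-voom, and 2 (Gpam and Lpin3) had an unadjusted p under 0.05 in edgeR's test, a level reached by 1183 of all 18979 genes tested.

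Of 15 other lipases and lipolysis regulators tested (17 listed, with Ces1f and Adrb3 too low), 2 rose in FUN025/FUN025 against WT, or 13.3% of the list, close to the 14.0% of all genes tested, with a median log2 fold change of -0.025. Pnpla3, the closest relative of Pnpla2 and a droplet protein linked to fatty liver in humans, was measured at 3.84, 4.68, 3.20 and 3.17 CPM in WT, and at 5.78, 6.77, 8.11, 5.43 and 7.99 CPM in FUN025/FUN025. Over the FUN025/+ libraries the lowest value was 1.98, the median 3.13 and the highest 4.57 CPM. As with Plin2, all FUN025/FUN025 libraries stood above all of the other libraries. Over all genes tested, the groups did not overlap for 14.8% against WT and 1.12% against FUN025/+. Its log2 fold change was 0.87 ± 0.21 (SE) against WT (adjusted p = 0.00996) and 1.02 ± 0.19 (SE) against FUN025/+ (adjusted p = 0.0138), on 27 to 101 counts per library. This was the largest fold among the members and listed pathway genes that passed, and other lipid genes were not compared here. The rise against FUN025/+ missed the threshold without FUN025/FUN025 replicate 3 (0.95, adjusted p = 0.058), and with the endothelial list as a covariate both were lost (0.83, adjusted p = 0.13, and 0.99, adjusted p = 0.11). The rise against WT also missed it with muscle and photoreceptor covariates (1.25, adjusted p = 0.092).

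Ddhd2, a triglyceride lipase best known from neurons, rose by a log2 fold change of 0.19 in FUN025/FUN025 (adjusted p = 0.0494), a call that was lost in 9 of 15 fits without 1 library, with log2 fold changes of 0.15 to 0.22. In FUN025/+ 0 of these 15 genes passed with edgeR, DESeq2 or limma-voom, and 4 had an unadjusted p under 0.05 in edgeR's test (Ddhd2, Abhd12, Prkaca and Pde3b). That level was reached by 5473 of all 18979 genes tested in this comparison. G0s2 and Hilpda, inhibitors of Pnpla2, did not pass in any comparison. G0s2 had log2 fold changes against WT of -0.19 (95% interval -0.40 to 0.02) in FUN025/+ and -0.03 (95% interval -0.24 to 0.19) in FUN025/FUN025, and Hilpda had -0.04 (95% interval -0.40 to 0.32) and -0.24 (95% interval -0.61 to 0.14).

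**Figure D4:**
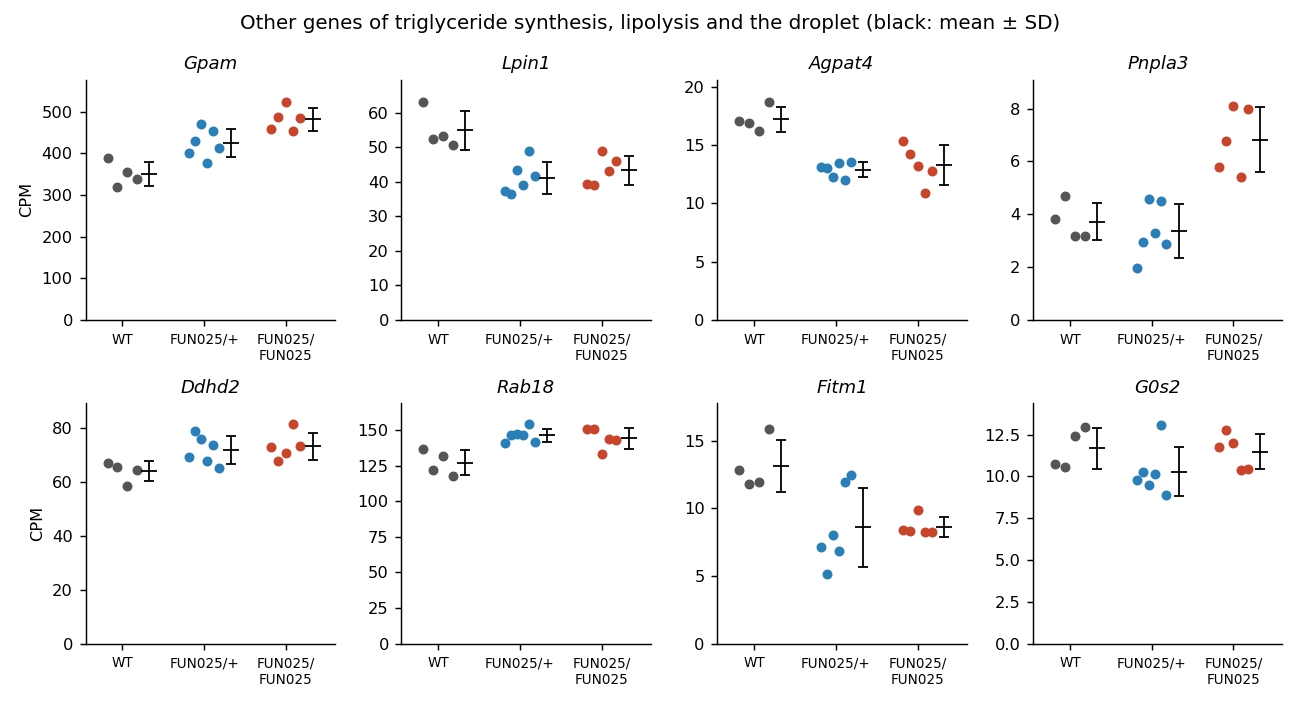
CPM of 8 further genes of triglyceride synthesis, lipolysis and the droplet surface on linear axes that start at 0, with 1 point per library grouped by genotype and the mean ± SD in black. Pnpla3 and Gpam are highest in FUN025/FUN025, where the Pnpla3 points (5.43 to 8.11 CPM) clear those of the other genotypes, while Lpin1 and Agpat4 are lower in both mutant genotypes than in WT.

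Of 12 other droplet proteins, all tested, 1 rose and 1 fell in each mutant genotype against WT, or 16.7% of the list, near the 13.7% and 14.0% of all genes tested, with median log2 fold changes of -0.019 and -0.070. Rab18, a small GTPase of the droplet surface, rose by 0.20 in FUN025/+ (adjusted p = 0.0114) and 0.18 in FUN025/FUN025 (adjusted p = 0.0241) on the log2 scale. The first was lost without WT replicate 4 (0.17, adjusted p = 0.051), and the second in 4 of 15 fits without 1 library. Both were also lost with fat cell, skeletal muscle and photoreceptor covariates and with muscle and photoreceptor lists together (0.14, adjusted p = 0.58, and 0.13, adjusted p = 0.56), and the second with endothelium (0.20, adjusted p = 0.13). Fitm1, a protein of droplet formation that is known from skeletal muscle, fell by 0.61 (adjusted p = 0.0396) and 0.60 (adjusted p = 0.0494) on the log2 scale. These calls were lost in 11 and 12 of 15 fits without 1 library, and with muscle and photoreceptor markers as covariates the values were 0.08 and 0.04. Between the mutant genotypes 0 of the 12 passed with edgeR, DESeq2 or limma-voom, and 1 (Cideb) had an unadjusted p under 0.05 in edgeR's test. That level was reached by 1183 of all 18979 genes tested in this comparison.

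Fat around the eye carries many of these transcripts, so the libraries were checked for it with Adipoq, a hormone made by fat cells, and Plin1, the perilipin of fat cells. Adipoq was at 1.72, 0.700, 0.600 and 2.95 CPM in the WT libraries, at 1.84, 1.00, 1.21, 0.247 and 0.998 CPM in the FUN025/FUN025 libraries, and at 0.565 to 0.956 CPM in FUN025/+. Plin1 was at 0.890, 0.807, 0.999 and 2.002 CPM in the WT libraries, at 2.17, 1.00, 0.562, 0.247 and 0.635 CPM in the FUN025/FUN025 libraries, and at 0.165 to 1.13 CPM in FUN025/+. Both had reads in every library at a low level, Plin1 with 2 counts in FUN025/+ replicate 6, under the floor of 3 counts, with WT replicate 4 highest among WT and replicate 1 among FUN025/FUN025. Neither passed the test in any comparison, and the log2 fold changes against WT were -1.11 (adjusted p = 0.11) and -0.46 (adjusted p = 0.54) for Adipoq and -0.89 (adjusted p = 0.27) and -0.29 (adjusted p = 0.74) for Plin1.

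The 8 fat cell markers summed to 10.1 to 31.9 CPM in WT, 6.64 to 9.21 CPM in FUN025/+ and 7.40 to 20.8 CPM in FUN025/FUN025. Of the 6 tested, 6 were negative against WT in both mutant genotypes, and 1, Trarg1, was called lower in FUN025/FUN025, where 7.02% of all genes tested were. In FUN025/+ 0 were called with edgeR or limma-voom and 1 (Cfd) with DESeq2, while 4 had an unadjusted p under 0.05 in edgeR's test, a level reached by 5473 of all 18979 genes tested. Lep had 0 to 5 counts and Ucp1, the marker of brown fat, 0 to 6 counts in a library. Cidec, a droplet protein of fat cells, had log2 fold changes against WT of -0.90 (adjusted p = 0.21) and -0.39 (adjusted p = 0.62).

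With the mean log2 level of the fat cell list as a covariate, Plin2, Pnpla2 and Mgll kept their calls in FUN025/FUN025 against WT, and Plin2 kept its call against FUN025/+. In FUN025/+ against WT, Pnpla2 (-0.19, adjusted p = 0.17) and Mgll (-0.31, adjusted p = 0.078) lost theirs and Plin4 kept its own. The part of fat, muscle, photoreceptor and vascular tissue in the differences against WT was not tested beyond these covariates.

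**Figure D5:**
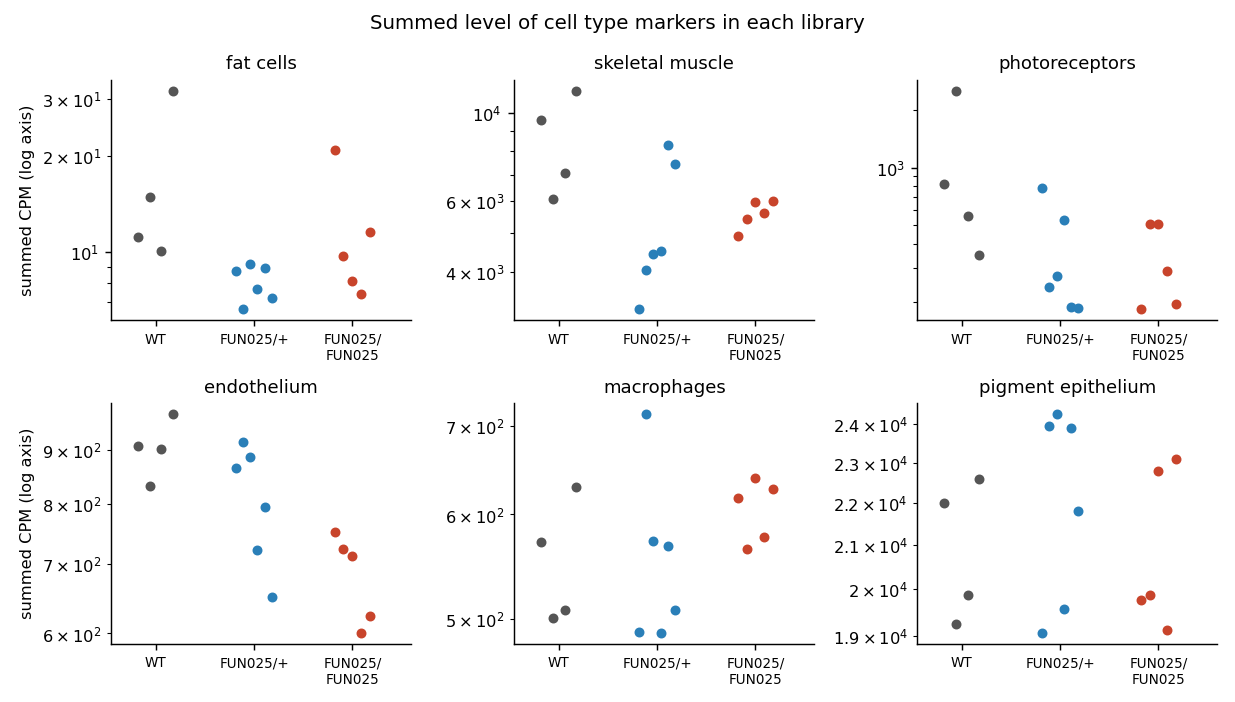
Summed CPM of 6 lists of cell type markers in each library, on log axes, with 1 point per library grouped by genotype. Fat cell, skeletal muscle and photoreceptor markers reach their highest sums in WT, endothelial sums of FUN025/FUN025 (601 to 751 CPM) lie below those of WT (832 to 975 CPM), and pigment epithelium sums intermingle. For photoreceptors (2510 CPM, replicate 2) and fat cells (31.9 CPM, replicate 4) the highest sum is 1 WT library well above the other WT libraries.

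To describe which transcripts varied most like those that passed, Pearson's correlation of log2 CPM over the 15 libraries was computed with 18978 other genes. The libraries share genotypes and depth, so this likeness includes the difference between genotypes. Plin2 was most like Trem2 (r = 0.90), a receptor of microglia and macrophages, then Lalba (0.88) and Npl (0.88). Trem2 lay at 20.7 ± 4.31 CPM in WT (SD, n = 4), 20.1 ± 3.31 CPM in FUN025/+ (SD, n = 6) and 29.3 ± 1.79 CPM in FUN025/FUN025 (SD, n = 5). Its log2 fold change was 0.50 against WT (adjusted p = 0.0151) and 0.55 against FUN025/+ (adjusted p = 0.0398), with no overlap in the latter, where 1.12% of all genes tested did not overlap. Trem2 was picked for its likeness to Plin2, which itself separates the genotypes. Its p-values in edgeR's test are therefore not separate evidence. Lalba and Npl were picked in the same way. Plin4 was most like Mcf2l (r = 0.94), Mark3 (0.91) and Zcchc7 (0.90). Pnpla2 was most like Zfp385b (r = 0.94), D17Wsu92e (0.93) and Cnot4 (0.92), and Mgll was most like Spag5 (r = 0.93), Msantd1 (0.90) and Rhoj (0.90).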

How the data were processed

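RNA from 15 eyecup libraries was poly(A)-selected, prepared with the NEBNext Ultra kit and sequenced as paired ends on a HiSeq instrument. The authors deposited whole-number read counts per Ensembl gene for each library, without normalization. The submitters' processing notes name FastQC 0.11.8, Trimmomatic 0.39, HISAT2 2.1.0, SAMtools, featureCounts 2.0.0 and GRCm38, and strand and multi-mapping settings are not given in the sources used here. Genotypes came from the sample labels. Symbols, places and exon lengths came from GENCODE M21, which held 55240 of the 55421 genes, and promoters from RefSeq on GRCm38.p6.

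As in the study, genes in the lowest 15% by variance were dropped, which left 47108, and edgeR's filterByExpr left 18979. TMM factors (0.976 to 1.02), edgeR 4.0.16 quasi-likelihood tests with robust dispersion over all 15 libraries and Benjamini-Hochberg adjustment were used, with R 4.3.3 and a threshold of 0.05. The scripts were tested on simulated data. CPM values used TMM-scaled totals, and 95% intervals are 1.96 standard errors on either side of the log2 fold change. The range of depth per genotype is given in the text.

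The members and lists were chosen with earlier results of these data known. Named genes are the 10 members, Tmem135, Adipoq, Plin1, G0s2, Hilpda and Cidec, up to 5 genes per pathway list and comparison with an adjusted p under 0.05, and the 3 genes most like each member that passed. Others were named after their values were seen: Trem2 with its test, marker genes and genes that passed by an unadjusted p or another tool.

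Alternatives were other scalings and filters, DESeq2 1.42.0, limma-voom (limma 3.58.1), fits restricted to the genotypes compared, a block for the replicate number, Xist as a covariate in place of sex, which is not labelled, marker lists as covariates, protein-coding genes alone and leaving out each library. Chosen after seeing the data were the fat cell, macrophage, endothelial and pigment epithelium lists, the muscle and photoreceptor lists each alone, and an unadjusted threshold.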

Additional observations from a re-analysis of the deposited data

Results flagged for a closer look

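In 5 of 69 groups of libraries, over 23 named genes, 1 library lay far from the rest by Dixon's test, which flags about 1 in 20 groups by chance. Mgll was 1386 CPM in FUN025/FUN025 replicate 4, above the other 4 libraries of that genotype. Adipoq was 0.956 CPM in FUN025/+ replicate 4, and Plin1 was 2.002 CPM in WT replicate 4. G0s2 was 13.1 CPM in FUN025/+ replicate 5, and Fitm1 was 9.88 CPM in FUN025/FUN025 replicate 3.

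Among the 10 members and the genes of the 3 pathway lists, 2 differed between the mutant genotypes by edgeR's quasi-likelihood test of that difference. Plin2 differed by a log2 fold change of 0.45 (FUN025/FUN025 above FUN025/+, adjusted p = 0.00815), and Pnpla3 by 1.02 in the same direction (adjusted p = 0.0138).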

How the results depend on the processing

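The following counts and signs changed under the alternatives, calls of single genes that were lost are counted at the end, and the causes were not tested. Genes called in FUN025/+ against WT (2600) came to 184 with muscle and photoreceptor covariates, 1173 with the skeletal muscle covariate, 728 with the fat cell covariate and 5473 at an unadjusted p under 0.05, with a range of 1446 (without WT replicate 4) to 2722 when 1 library was left out. In FUN025/FUN025 against WT (2666) they came to 506 with muscle and photoreceptor covariates, 1639 with skeletal muscle, 954 with endothelium and 5431 unadjusted, with a range of 1528 (without WT replicate 4) to 2701. Between the mutant genotypes (99) they came to 171 with DESeq2, 149 with macrophages, 64 with endothelium and 1183 unadjusted, with a range of 68 to 110. Members called in FUN025/+ against WT (3) came to 1 with fat cell, pigment epithelium or photoreceptor covariates, to 0 with muscle and photoreceptor covariates, skeletal muscle alone or protein-coding genes alone, and to 0 to 3 when 1 library was left out. In FUN025/FUN025 against WT they came to 1 with photoreceptors and 0 with muscle and photoreceptor covariates, and between the mutant genotypes to 2 (Plin2 and Plin3) unadjusted.

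Replicate numbers come from the labels, and same-numbered libraries did not deviate together (correlations of -0.385 to 0.133), so they share only a number. With the replicate number as a block, members called came to 1 in FUN025/+ against WT and 0 between the mutant genotypes, where Plin2 was 0.43 (adjusted p = 0.096). Under this block the log2 fold changes that changed sign were Abhd5 (-0.017 in FUN025/+ and -0.0010 in FUN025/FUN025 against WT), Plin5 (-0.070 in FUN025/FUN025 against WT), Dgat1 (0.031) and Dgat2 (0.029), the latter pair between the mutant genotypes.

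The remaining changes of sign were in log2 fold changes, none past the threshold. With muscle and photoreceptor covariates, Plin4 came to 0.24, Dgat1 to 0.23 and Fitm1 to 0.084 in FUN025/+, and Plin3 to -0.017, Plin4 to 0.25, Plin5 to -0.22, Dgat1 to 0.19 and Fitm1 to 0.042 in FUN025/FUN025 against WT. With skeletal muscle alone, Plin5 (0.15) and Dgat1 (0.064) in FUN025/+ and Dgat1 (0.039) in FUN025/FUN025 turned positive, and with photoreceptors alone Abhd5 (-0.057 and -0.029) and Plin5 (-0.35 in FUN025/FUN025) turned negative. Abhd5 was -0.0042 in FUN025/+ with no filter on low counts, -0.0066 with macrophages and -0.073 with pigment epithelium, and with macrophages -0.027 in FUN025/FUN025 and -0.021 between the mutant genotypes. Plin5 in FUN025/FUN025 was -0.25 with macrophages and -0.071 with fat cells. With endothelium Lipe was 0.035 in FUN025/FUN025 and 0.065 between the mutant genotypes, where Plin4 was -0.044, and with pigment epithelium the latter pair were 0.088 and -0.021.

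When 1 library was left out, Abhd5 ran from -0.029 to 0.036 in FUN025/+, -0.015 to 0.068 in FUN025/FUN025 and -0.016 to 0.067 between the mutant genotypes, and Dgat1 from -0.084 to 0.024, -0.093 to 0.015 and -0.050 to 0.032. Dgat2 ran from -0.082 to 0.033 and Lipe from -0.058 to 0.034 between the mutant genotypes, and Plin5 from -0.021 to 0.13 in FUN025/FUN025. Plin5 had too few counts to be tested with at least 10 counts required in every library, and its few counts and its spread in FUN025/+ limit what could be seen.

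Of 18 alternatives other than leaving out a library, these changed calls of single genes. In FUN025/+ against WT the call was lost in 7 for Plin4 (muscle and photoreceptor covariates together or each alone, pigment epithelium, protein-coding genes alone, no filter on low counts and the replicate block), 5 for Pnpla2, 9 for Mgll (upper-quartile scaling, only the genotypes compared, the block, protein-coding genes alone and 5 covariate fits, with adjusted p up to 0.74), 6 for Fitm1, 4 for Rab18, 3 for Gpam, 2 for Agpat4 and 2 for Lpin1. In FUN025/FUN025 against WT it was lost in 2 for Plin2, 3 for Pnpla2, 2 for Mgll, 10 for Fitm1, 7 for Rab18, 9 for Ddhd2, 2 for Agpat4, 3 for Lpin1, 2 for Pnpla3 and 0 for Gpam, and Plin4 gained a call with the pigment epithelium covariate (-0.32, adjusted p = 0.049). Between the mutant genotypes it was lost in 1 each for Plin2 (the block) and Pnpla3 (endothelium).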
